A study of Homo sapiens with 4 samples.

Results

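The genes of the nuclear pore and of the receptors that carry cargo through it were compared with and without sturgeon chondroitin sulfate in human colon cells. Members were taken by gene symbol and comprised 27 pore proteins (nucleoporins), 14 transport receptors and the small GTPase RAN. These were 42 of the 64936 named genes in the deposited table, and all 42 had fragments in at least 3 of the 4 libraries. SCS, the chondroitin sulfate of hybrid sturgeon, is a sulfated glycosaminoglycan, and the study asked how it acts on colon cancer cells and on normal colon cells. RNA-seq covered HT-29, a colorectal adenocarcinoma line, and NCM460, a line from normal colon epithelium, and in each line a control without SCS was set against cells given SCS at 100 μg/mL for 24 h. Every condition had 1 library, 4 in all, so no difference has a replicate check, and no test or p-value is given.

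The nuclear pore complex is the gate in the nuclear envelope through which RNA, proteins and ribosomal subunits pass. Its outer rings are built from the Y complex, its core from the inner ring, and its permeability barrier from nucleoporins rich in phenylalanine-glycine repeats. Importins release cargo in the nucleus when they bind RAN in its GTP form, exportins carry cargo out together with RAN-GTP, and dividing epithelial cells depend on this traffic to rebuild their nuclei after mitosis.

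The upstream DNA of 5 members is printed because the members did not move as a block in HT-29: NUP107, KPNA2 and XPO1 were lower with SCS and NUP88 and TPR were higher. Each line holds the 150 bases just before the RefSeq start of the gene, on GRCh38.p14, read 5′ to 3′ along the strand of the gene. Capitals mark matches to the letters CCAAT, CGCATGCG (the core of NRF1 sites) and CCGGAA (the core of ETS factor sites), on either strand.
NUP107 (chr12:68686828-68686977, plus strand): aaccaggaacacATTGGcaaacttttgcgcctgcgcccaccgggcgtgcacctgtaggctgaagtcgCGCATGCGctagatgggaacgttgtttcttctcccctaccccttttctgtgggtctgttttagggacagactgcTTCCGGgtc
KPNA2 (chr17:68035585-68035734, plus strand): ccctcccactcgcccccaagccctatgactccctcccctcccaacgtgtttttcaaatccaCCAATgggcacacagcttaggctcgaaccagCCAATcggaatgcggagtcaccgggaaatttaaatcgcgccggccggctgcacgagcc
XPO1 (chr2:61538357-61538506, minus strand): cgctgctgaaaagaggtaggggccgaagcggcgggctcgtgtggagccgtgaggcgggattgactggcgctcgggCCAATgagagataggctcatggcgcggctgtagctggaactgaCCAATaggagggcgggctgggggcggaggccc
NUP88 (chr17:5419663-5419812, minus strand): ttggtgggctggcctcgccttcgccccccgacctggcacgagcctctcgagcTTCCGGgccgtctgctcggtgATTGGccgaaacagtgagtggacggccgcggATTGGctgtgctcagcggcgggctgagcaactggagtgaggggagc
TPR (chr1:186375254-186375403, minus strand): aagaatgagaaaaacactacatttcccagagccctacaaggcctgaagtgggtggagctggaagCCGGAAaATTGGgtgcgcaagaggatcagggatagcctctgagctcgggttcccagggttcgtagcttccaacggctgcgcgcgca

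KPNA2 and XPO1 each carried 2 CCAAT words in this window, as did NUP88, while NUP107 carried 1 of each of the 3 words. RefSeq held an upstream window for 39 of the 42 members. Over 250 upstream bases, 15 of the 39 (38.5%) held CCGGAA or its complement, against 25.9% of the 8503 windows that belonged to loci tested in HT-29 and 14.5% of all 35116 windows. CCAAT was found in 16 members (41%, against 35.1% and 32%), the E-box word CACGTG in 6 (15.4%, against 9.11% and 6.34%) and the NRF1 word in 3, NUP107, NUP50 and NUP62 (7.69%, against 3.42% and 1.73%). The word GGGCGG, bound by SP1, stood in 20 members (51.3%, against 68.2% and 42.6%), and the TATAAA word in KPNA6 alone (2.56%, against 5.22% and 10.7%). GGCGGGAA, an E2F word that can overlap GGGCGG, stood in 2 (5.13%, against 4.48% and 2.72%). Both strands were read for every word. Of the 19 members with a window that were lower in HT-29, 4 held CCGGAA and 8 held CCAAT, and of the other 20 members 11 held CCGGAA and 8 held CCAAT. These matches describe letters and not bound sites.

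The changes in NCM460 ran with the base composition of the transcripts, and 4 coding stretches are shown for that reason. They belong to the 2 members with the lowest and the 2 with the highest change among those called in NCM460. Each is the 120-base coding stretch within 1 exon whose share of G and C was nearest to that of the whole transcript. The likeness of stretch and transcript was thus set by this choice. Coordinates are those of GRCh38 and GENCODE release 29, and G and C are in capitals.
POM121 (chr7:72940839-72940958, plus strand, exon 13): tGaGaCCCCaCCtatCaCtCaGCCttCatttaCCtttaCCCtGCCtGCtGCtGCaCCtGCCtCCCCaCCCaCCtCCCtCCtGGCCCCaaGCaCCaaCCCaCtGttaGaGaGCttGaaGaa
RAE1 (chr20:57374613-57374732, plus strand, exon 11): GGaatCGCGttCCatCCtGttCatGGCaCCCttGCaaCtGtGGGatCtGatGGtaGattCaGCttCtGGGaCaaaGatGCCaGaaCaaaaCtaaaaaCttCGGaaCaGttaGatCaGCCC
IPO8 (chr12:30684321-30684440, minus strand, exon 3): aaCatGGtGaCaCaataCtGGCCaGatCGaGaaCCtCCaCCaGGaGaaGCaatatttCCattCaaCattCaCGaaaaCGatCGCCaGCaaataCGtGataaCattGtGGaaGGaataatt
TNPO1 (chr5:72865597-72865716, plus strand, exon 6): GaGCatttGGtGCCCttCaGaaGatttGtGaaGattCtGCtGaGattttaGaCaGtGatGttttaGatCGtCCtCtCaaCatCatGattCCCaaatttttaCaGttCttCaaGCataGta

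The whole transcripts of POM121 and RAE1 held 57.7% and 49.3% G and C, and those of IPO8 and TNPO1 held 41.7% and 37.2%. The median of all loci tested in NCM460 was 49.5%, close to RAE1. These members kept their NCM460 calls after subtraction of the trend of change with transcript GC content. The values were then -0.78 for POM121, -1.07 for RAE1, 1.42 for IPO8 and 1.23 for TNPO1. RAE1 lost its NCM460 call when scaled by total counts or by nuclear totals. The part of composition in these changes was not tested.

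The libraries held 1156567 to 1654764 fragments, of which 507692 to 1383424 were from nuclear genes. Mitochondrial genes took 35.8% and 13.8% of the fragments in HT-29 without and with SCS, and 62.3% and 46.3% in NCM460. Levels are given as CPM, the fragments of a gene per 1000000 fragments of the library after scaling by TMM, a factor of each library that keeps most genes level. The epithelial markers KRT8, KRT18, KRT19, EPCAM and CDH1 were present in all 4 libraries. Of the mesenchymal markers, VIM was at 7 fragments or fewer in each library and SPARC at 0 in HT-29, but SPARC had 65 and 102 fragments in NCM460 without and with SCS, and COL1A1 and FN1 had 4 to 17 fragments per library. CDX2 was at 0 fragments in both HT-29 libraries, and KRT20 and VIL1 were at 0 in both NCM460 libraries, where a count of 0 allows up to 3 fragments. Summed epithelial markers, most of them keratin fragments, fell from 6458 to 3342 CPM in HT-29 and from 4346 to 2659 CPM in NCM460. Single markers moved apart: in HT-29, 4 of 7 were called lower, and CDH1 (0.74) and KRT20 (1.11) were called higher. In NCM460, 3 of 6 were called lower, none of them after subtraction of the trend of change with transcript GC content, and EPCAM was called higher (1.31, or 1.01 after subtraction). In bulk RNA, fewer cells of a type and less RNA per cell cannot be told apart. Of the members, 8 shared their values with overlapping genes (NUP62, NUP98, NUP133, NUP160, NUP188, TPR, KPNA6 and IPO4, the last with NEDD8, TM9SF1, CHMP4A and MDP1 among others), and RANBP2, POM121 and KPNA2 have near-identical copies or pseudogenes, so the values of these genes are uncertain.

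A gene was called higher or lower when its level differed by more than 1.5-fold between the SCS and the control library and the 95% interval of the log2 change, which covers counting error only, excluded 0. In HT-29, 20 of the 42 members (47.6%) were called lower with SCS and 4 (9.52%) were called higher. Among all 12168 loci tested in HT-29, 14.8% were called lower and 16.8% higher. The median log2 change was -0.53 for the members and 0.07 for all loci. Summed over the members, the level went from 3285 to 2535 CPM, a log2 change of -0.37 (95% interval -0.42 to -0.32). After subtraction of the trend of change with transcript GC content, the same 20 members were called lower and 2, NUP88 and KPNA4, were called higher, against 16% and 14.5% of all loci (30.5% in either direction). The direction of calls depended on scaling. Of all calls in HT-29, 53.1% were higher with TMM, 73.8% with total counts and 39.5% with nuclear totals, and the members split 4 higher to 20 lower, 7 to 10 and 2 to 23, respectively. Markers of cycling cells moved with the members in HT-29: all 8 (MKI67, TOP2A, PCNA, MCM2, MCM4, CCNB1, CDK1 and PLK1) were called lower, and their sum fell from 858.7 to 205.2 CPM. Their part in the lower member levels was not tested.

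In NCM460 the balance was the other way, with 19 members (45.2%) called higher and 7 (16.7%) called lower. Of the 12657 loci tested there, 15.4% were called higher and 13.8% lower. The members had a median log2 change of 0.56 (all loci 0.03), or 0.54 over the 41 members without NUP35, which was at 0 fragments in the control. Their sum was 2162 CPM in the control and 2658 CPM with SCS, a log2 change of 0.30 (0.21 to 0.39). With the GC trend subtracted, only 6 of the 19 stayed higher (NUP205, NUP88, IPO7, IPO8, TNPO1 and CSE1L), against 5.65% of all loci, and 5 were lower (POM121, RAE1, NUP37, KPNA4 and IPO9), against 5.98% (11.6% in either direction). The median then stood at -0.07. Of all calls in NCM460, 52.7% were higher with TMM, 94.1% with total counts, 65.8% with nuclear totals and 42% with the size factors of the authors. For the members these splits were 19 higher to 7 lower, 28 to 1, 21 to 4 and 14 to 7. Cycling markers were mixed in NCM460, with 3 of 8 higher and 2 lower, or 1 higher (MCM4) and 1 lower (PLK1) after GC subtraction, and their sum was 734.4 CPM without and 647.3 CPM with SCS.

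**Figure D1:**
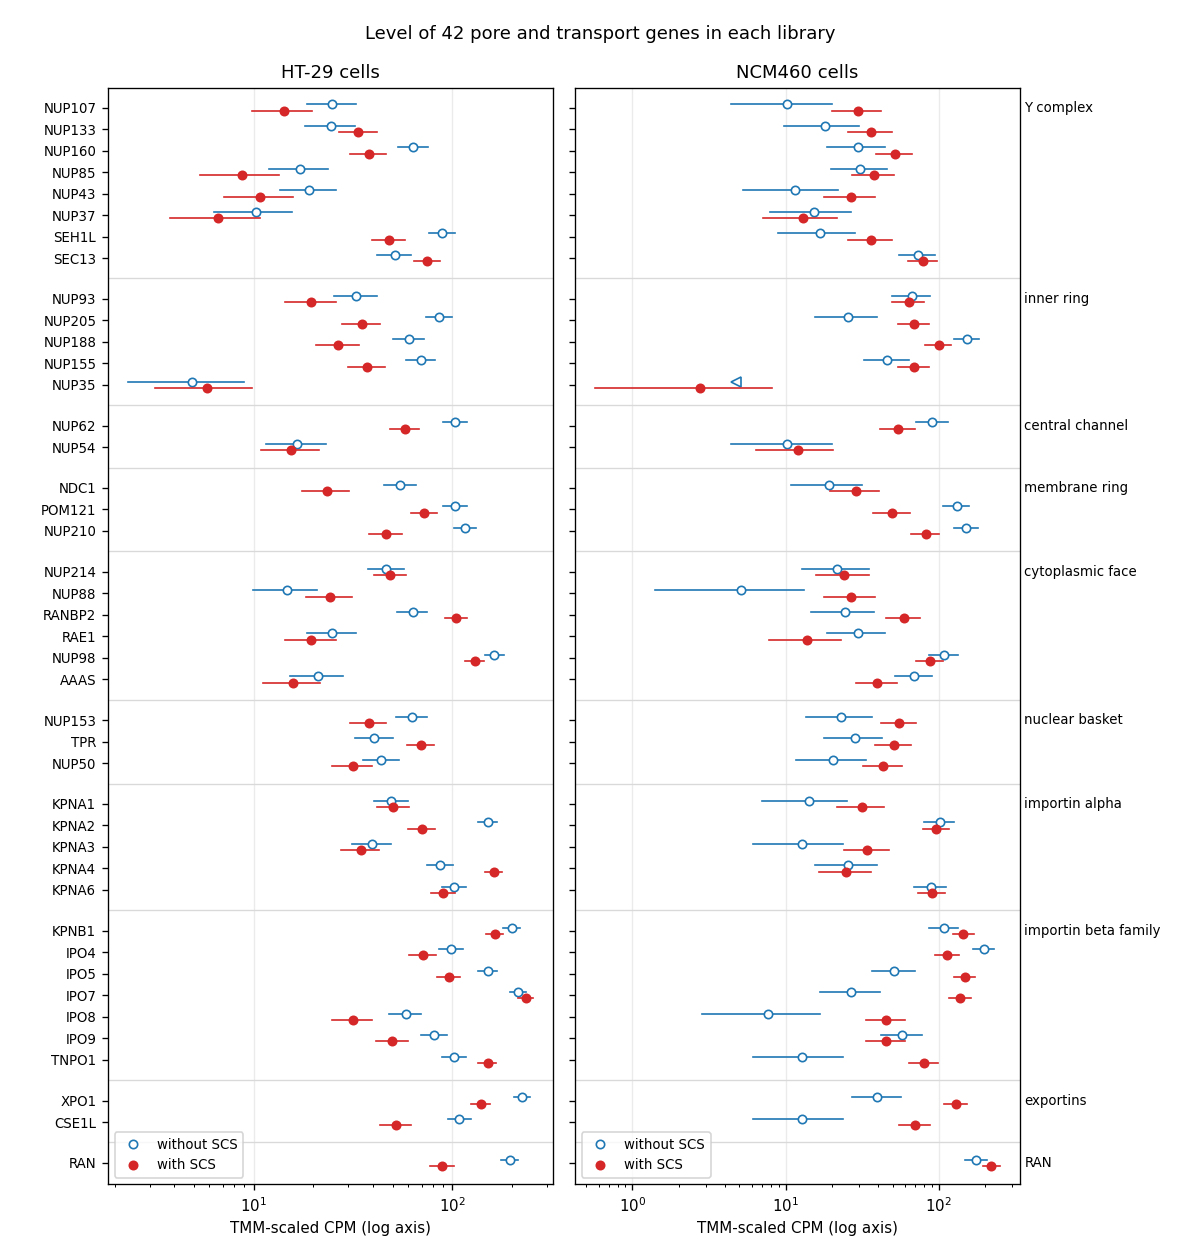
Level of each of the 42 genes in TMM-scaled CPM (log axis) in HT-29 (left) and NCM460 (right), with open circles for the control and filled circles for the SCS library, bars for exact 95% counting intervals, and a triangle at the upper counting limit for NUP35, which had 0 fragments in the NCM460 control. The summed level was 3285 and 2535 CPM in HT-29 and 2162 and 2658 CPM in NCM460.

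The Y complex, the scaffold of the outer rings, was the largest group, and 5 of its 8 genes were called lower in HT-29 while none was called higher. NUP107 (ENSG00000111581, chr12:68686734-68745809), a stalk subunit of the Y, stood at 24.9 CPM in the HT-29 control, 14.1 with SCS, 10.3 in the NCM460 control and 29.6 with SCS. The HT-29 control and NCM460 with SCS were thus the high libraries. The log2 change was -0.76 (-1.49 to -0.16) in HT-29 and 1.42 (0.38 to 2.86) in NCM460, the latter falling to 0.35 after GC subtraction. SEH1L, a short-arm subunit that is also part of the amino acid sensing complex GATOR, was at 89, 47.9, 16.7 and 36.1 CPM in the same order. It fell in HT-29 by 0.88 on the log2 scale and rose in NCM460 (1.06), a change that turned to -0.19 without the GC trend. NUP160, NUP85 and NUP43, further arm subunits, also fell in HT-29, with changes of -0.73, -0.88 and -0.75. The HT-29 calls of NUP107, NUP160, NUP85 and NUP43 were lost with total counts, and also with nuclear counts thinned to equal depth. SEH1L kept its HT-29 call in both settings. SEC13, which also serves in COPII vesicle coats, had the highest change of the group in HT-29 (51.3 and 74.9 CPM, 0.53, interval 0.19 to 0.91). It was not called because it stayed under the 1.5-fold limit. NUP133, the other stalk subunit, was not called either in HT-29 (0.44, interval -0.06 to 1.00), nor was NUP37 (-0.54).

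In NCM460, 5 Y complex genes rose (NUP107, NUP133, NUP160, NUP43 and SEH1L), and none of these calls was left after GC subtraction. NUP37, a peripheral subunit, had the lowest change of the group at 15.4 CPM in the control and 12.9 with SCS (-0.23). Its transcript was AT-rich (38.6% GC), and it was called lower once the trend was removed (-1.46, interval -2.70 to -0.23). The summed level of the group changed by -0.35 (-0.52 to -0.18) in HT-29 and by 0.59 (0.32 to 0.87) in NCM460.

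The inner ring, which lines the core of the pore, had the widest drop of the pore groups with more than 3 genes in HT-29. There 4 of 5 genes fell, and the summed level went from 253.2 to 124 CPM (-1.03, interval -1.24 to -0.82). NUP205 (ENSG00000155561, chr7:135557919-135648757), one of the large ring scaffolds, was at 85.5, 35, 25.7 and 69.4 CPM in HT-29 control, HT-29 with SCS, NCM460 control and NCM460 with SCS. Its change was -1.26 (-1.68 to -0.91) in HT-29 and 1.39 (0.71 to 2.22) in NCM460. NUP205 kept both calls under all 11 settings of scaling, filter and trend that were tried on the counts. The filter settings among them only set which loci are compared and leave each log2 change as it was, so they are no check on its size. NUP188, the paralogous scaffold, was at 60.6 and 26.6 CPM in HT-29 and at 153 and 99.9 CPM in NCM460. It was lower with SCS in both lines (-1.15 and -0.61), but in NCM460 it was not called after GC subtraction. NUP93, which anchors the central channel proteins, and NUP155 fell in HT-29 (-0.71 and -0.88) and were not called in NCM460 (-0.06 and 0.57). NUP35, which binds the membrane, was the scarcest member, with 10, 14, 0 and 3 fragments in the 4 libraries, and no fold is given for it in NCM460. Its change in HT-29 was 0.20 (-1.02 to 1.58).

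NUP62 and NUP54 form the central channel with their phenylalanine-glycine repeats. NUP62 was at 103 and 57.8 CPM in HT-29 and at 91.2 and 54.6 CPM in NCM460, so that both SCS libraries were the low ones. The changes were -0.82 (-1.15 to -0.52) and -0.73 (-1.26 to -0.22), and the NCM460 value became -0.11 after GC subtraction. NUP62 is among the members that share a locus, here with IL4I1 and SIGLEC11. NUP54 was not called, with -0.10 in HT-29 and 0.20 in NCM460.

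The membrane ring holds the pore to the envelope, and 2 of its 3 genes were called lower in each line. NUP210, a transmembrane glycoprotein, was at 116 and 46.2 CPM in HT-29 and at 152 and 82.3 CPM in NCM460, and its change of -1.30 (-1.66 to -1.0) was the lowest of all members in HT-29. In NCM460 it fell by 0.87 on the log2 scale, and by 0.26 without the GC trend, where it was not called. POM121 (ENSG00000196313, chr7:72879365-72951440), needed to build pores into the envelope, was at 104, 72, 131 and 49.9 CPM. Its change of -1.37 (-1.89 to -0.90) in NCM460 was the lowest of all members there and was called under all 11 settings, while in HT-29 it was -0.52 and not called. NDC1, which recruits other nucleoporins to the membrane, fell from 54.7 to 23.3 CPM in HT-29 (-1.19) and was not called in NCM460 (19.3 and 28.7 CPM, 0.54). The group as a whole changed by -0.95 (-1.15 to -0.76) and -0.91 (-1.20 to -0.62).

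The cytoplasmic face carries the filaments where exported messenger RNA is released. In contrast to the rings, none of its 6 genes was called lower on the counts in HT-29 and 2 were called higher. The summed level of 332.4 and 342.1 CPM differed by less than counting error (0.04, interval -0.11 to 0.19). In FPKM the contrast was not seen. The FPKM changes in HT-29 were -0.84 for RAE1, -0.83 for NUP98, -0.67 for AAAS, -0.26 for NUP88, -0.03 for RANBP2 and 0.30 for NUP214. NUP88 (ENSG00000108559, chr17:5360963-5420160), which holds NUP214 at the filament base, was at 14.7, 24.1, 5.14 and 26.8 CPM. Both SCS libraries were the high ones, and the changes were 0.67 (0.06 to 1.41) and 2.13 (0.87 to 4.35), the second from 4 and 29 fragments. The FPKM values of NUP88 went the other way, from 8.58 to 6.98 in HT-29 and from 10.9 to 9.17 in NCM460. RANBP2, the filament protein with RAN-binding domains and SUMO ligase activity, rose from 63 to 104 CPM in HT-29 and from 24.4 to 59.2 CPM in NCM460 (0.72 and 1.24). In FPKM it stood at 6.29 and 6.16 in HT-29, and neither call was left after GC subtraction. RAE1, a messenger RNA export factor that binds NUP98, fell from 29.5 to 13.9 CPM in NCM460 (-1.02, interval -2.13 to -0.09) and was not called in HT-29 (-0.33). AAAS, the protein ALADIN, had the lowest change of the group in HT-29 (-0.38, not called) and fell in NCM460 (-0.78), a call not left after GC subtraction. NUP98, which lines both faces of the pore, was not called in HT-29 (-0.32, interval -0.55 to -0.10) or NCM460 (-0.29). NUP214, a docking site for XPO1, was not called either (0.07 and 0.13).

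The nuclear basket faces the chromatin, and its 3 genes moved apart in HT-29 and together in NCM460. NUP153, a docking site for importins, was at 62.6, 37.9, 23.1 and 55.5 CPM, which gave -0.71 (-1.13 to -0.33) in HT-29 and 1.22 (0.48 to 2.11) in NCM460. TPR (ENSG00000047410, chr1:186311652-186375693), the coiled-coil filament of the basket, was at 40.6, 69.5, 28.2 and 50.9 CPM and was higher with SCS in both lines (0.76 and 0.82). Its NCM460 FPKM went from 15.3 to 5.43, against the direction of the counts. NUP50, a cofactor of importin release, was not called in HT-29 (-0.46) and rose in NCM460 (20.5 to 43.5 CPM, 1.04). None of the 3 rises in NCM460 was called after GC subtraction (0.61, -0.29 and 0.24 for NUP153, TPR and NUP50).

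**Figure D2:**
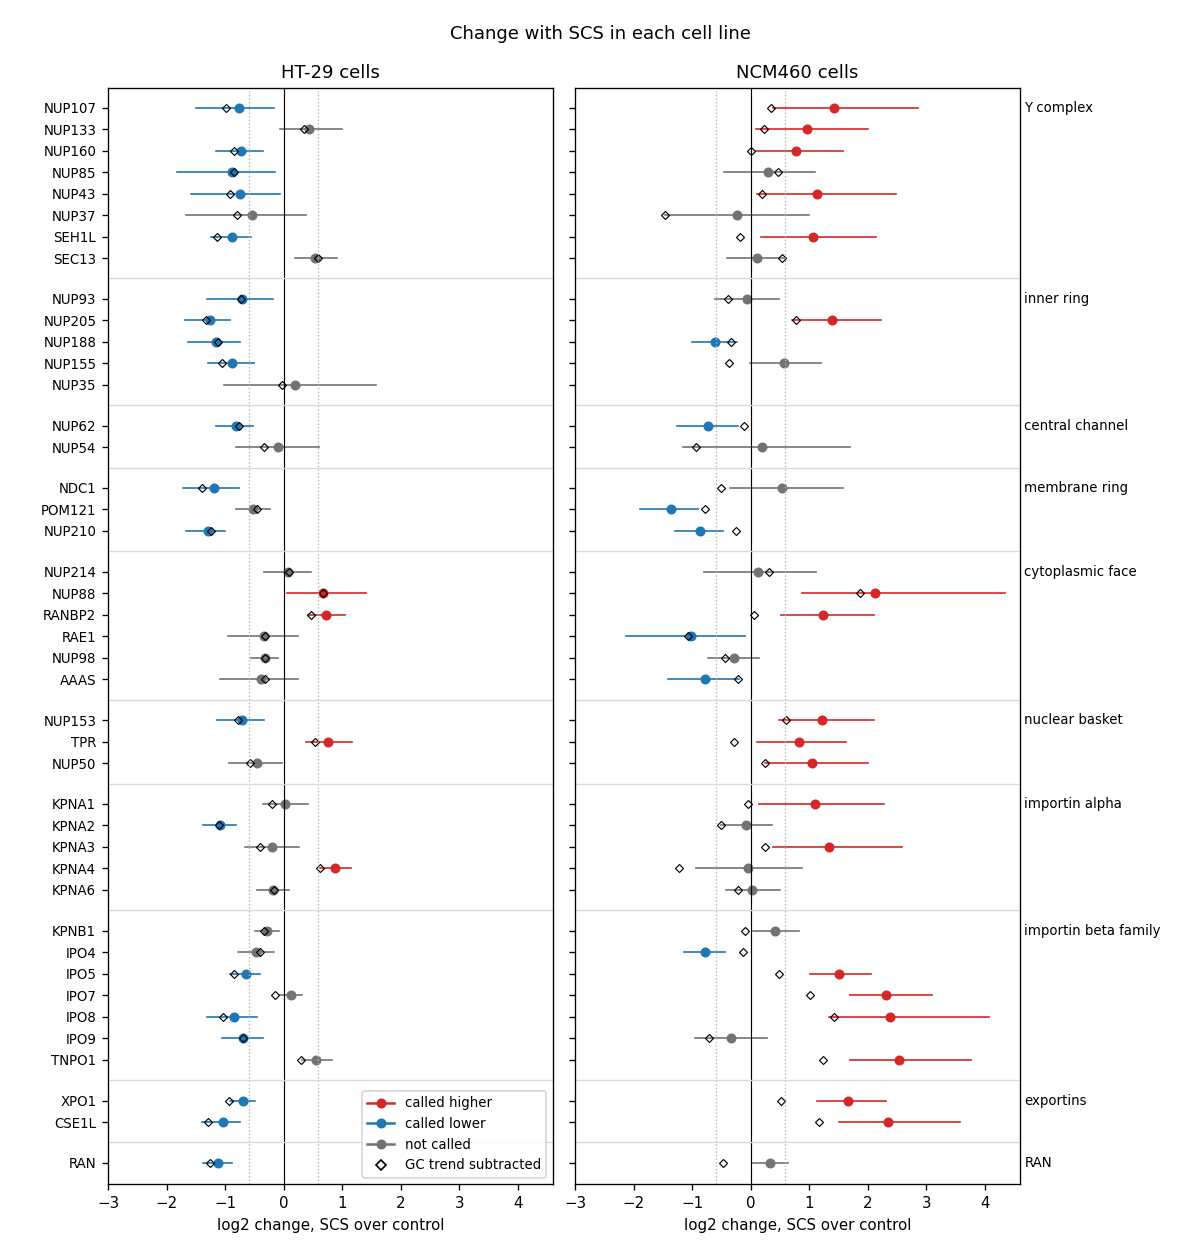
Log2 change with SCS for each member in HT-29 (left) and NCM460 (right), with 95% counting intervals, coloured by call; diamonds show the value after subtraction of the GC trend, dotted lines the 1.5-fold limit, and NUP35 is left out in NCM460. In HT-29, 20 genes are called lower and 4 higher, and in NCM460 19 are called higher and 7 lower, of which 6 and 2 keep their call in the same direction after subtraction.

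Among the importin alpha adaptors, which bind the classical nuclear localization signal, the members changed in opposite directions in HT-29. KPNA2 (ENSG00000182481, chr17:68035519-68046842), the adaptor highest in dividing cells, was at 151 CPM in the HT-29 control, 70.3 with SCS, 101 in the NCM460 control and 96.2 with SCS. It fell in HT-29 (-1.08, interval -1.38 to -0.82) under all 11 settings and was not called in NCM460 (-0.08). KPNA4 (ENSG00000186432, chr3:160494995-160565588), the adaptor known to import NF-kappaB, was at 87, 161, 25.7 and 25 CPM. It had the highest change of all members in HT-29 (0.88, interval 0.63 to 1.15) and was called higher there under all 11 settings. The rank did not hold throughout: with the GC trend subtracted, NUP88 (0.67) stood above KPNA4 (0.63) in HT-29. KPNA4 had no call in NCM460 (-0.04), where GC subtraction gave -1.23 and a lower call. KPNA1 and KPNA3 rose in NCM460 (1.09 and 1.33), calls that were not left after GC subtraction, and were at 0.03 and -0.19 in HT-29. KPNA6 was not called in either line (-0.18 and 0.03). The summed importin alpha level was 428.1 and 406.2 CPM in HT-29, a log2 change of -0.08 (-0.21 to 0.06).

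KPNB1, the carrier that takes importin alpha and its cargo through the pore, was at 199, 164, 108 and 145 CPM and was not called in either line (-0.28 and 0.42). Of the other 6 receptors of the importin beta family, 3 were called lower in HT-29, and 4 were called higher and 1 lower in NCM460. IPO8 (ENSG00000133704, chr12:30628988-30695986), a close relative of IPO7, was at 58.2, 31.6, 7.7 and 45.3 CPM. It fell in HT-29 (-0.85, interval -1.31 to -0.45), where it had the lowest change of the family, and rose in NCM460 (2.38, interval 1.33 to 4.07) from 6 to 49 fragments. IPO5, an importer of ribosomal proteins and histones, was at 151, 95.7, 51.4 and 148 CPM (-0.65 and 1.5). IPO7, which also carries ribosomal proteins, was at 214 and 233 CPM in HT-29, not called, and rose from 27 to 139 CPM in NCM460 (2.31). TNPO1 (ENSG00000083312, chr5:72816312-72916733), the importer of RNA-binding proteins with a PY signal, stood at 102, 150, 12.8 and 80.4 CPM. The NCM460 control was by far its lowest library, and the change in NCM460 of 2.53 (1.70 to 3.76) was the highest of all members, while that in HT-29 (0.56) was just under the 1.5-fold limit. IPO9, a histone importer, fell in HT-29 (81.1 to 49.9 CPM, -0.69), and IPO4, also a histone importer but with a shared locus, fell in NCM460 (196 to 114 CPM, -0.78). After GC subtraction the NCM460 changes of IPO7, IPO8 and TNPO1 were 1.02, 1.42 and 1.23 and stayed called, while those of IPO5 (0.48) and IPO4 (-0.13) did not.

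Both exportins fell in HT-29 and rose in NCM460. XPO1 (ENSG00000082898, chr2:61477849-61538626), the main exporter of proteins with a leucine-rich export signal, was at 225, 139, 39.8 and 129 CPM. Its change was -0.69 (-0.91 to -0.49) in HT-29 and 1.67 (1.13 to 2.31) in NCM460, and 0.52 in NCM460 without the GC trend, where it was not called. CSE1L (ENSG00000124207, chr20:49046246-49096960), which returns importin alpha to the cytoplasm, was at 109, 52, 12.8 and 70.3 CPM. Its change of -1.04 (-1.39 to -0.74) in HT-29 and of 2.34 (1.5 to 3.57) in NCM460, or 1.16 after GC subtraction, was called under all 11 settings. The untreated lines already stood apart for both genes, with the HT-29 control above the NCM460 control by 2.46 (XPO1) and 2.96 (CSE1L) on the log2 scale. Both transcripts are AT-rich (39.6% and 39.2% GC), and no GC trend was subtracted between the untreated lines. The part of composition in this difference was not tested.

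RAN (ENSG00000132341, chr12:130871879-130877678), the GTPase that gives transport its direction, was at 195, 88.6, 176 and 221 CPM. The HT-29 library with SCS was the low one, and the change in HT-29 was -1.12 (-1.38 to -0.89), called under all 11 settings. In NCM460 RAN was not called (0.33, interval 0.02 to 0.64). Levels of different genes can be compared only per length, and in FPKM RAN was the highest member in 3 of the 4 libraries (100, 38.7, 168 and 121). In HT-29 with SCS it was second to SEC13, which stood at 40 FPKM. The scarcest in FPKM was NUP35 in 3 of the 4 libraries (2.86, 2.42, 0 and 2.01).

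Of 28 further genes of the pathway (other importins and exportins, regulators of RAN and messenger RNA export factors), 26 were tested in each line. In HT-29, 2 were higher and 5 lower (all loci 16.8% and 14.8%), with the same counts after GC subtraction. In NCM460, 5 were higher and 7 lower (all loci 15.4% and 13.8%), which became 2 and 2 after GC subtraction (all loci 5.65% and 5.98%). RANBP1, the RAN cofactor that stimulates GTP hydrolysis, fell in HT-29 from 251 to 60.3 CPM (-2.03, interval -2.33 to -1.79), more than any member, though its values are uncertain because it has pseudogenes and shares its locus with SNORA77. XPOT, the exporter of transfer RNA, rose there from 139 to 298 CPM (1.09), and ALYREF, which couples messenger RNA processing to export, fell from 51.3 to 23.7 CPM (-1.07). In NCM460 the largest changes were those of IPO11 (11.6 to 57.3 CPM, 2.19), IPO13 (30.8 to 6.47 CPM, -2.05) and XPO4 (7.7 to 25 CPM, 1.55). After GC subtraction these were 1.03, -1.45 and 0.27, and XPO4 was no longer called. The locus of IPO11 is shared with KIF2A and LRRC70, so its value cannot be assigned to IPO11 alone. IPO11 and XPO4 have AT-rich transcripts (39.4% and 37.8% GC), and that of IPO13 is GC-rich (58.2%).

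Transcript composition ran with the changes in NCM460. Across genes, which are not independent replicates and share the same 2 libraries, Spearman's rho between log2 change and GC content was -0.63 over 12584 loci in NCM460 and -0.13 over 12092 loci in HT-29. For the 42 members it was -0.68 in NCM460 and -0.21 in HT-29. The members had a median GC content of 43.2% (range 37.2% to 59.4%), against 49.5% for all loci tested in NCM460. Under 40% GC, 7 of 11 members were called higher in NCM460 and none lower, against 40.8% and 0.168% of all loci in that range. From 40% to 50% the counts were 12 higher and 1 lower of 22 (all loci 23.6% and 2.01%), and from 50% on 0 higher and 6 lower of 9 (all loci 1.71% and 26.8%). In HT-29 the same 3 ranges held 3 of 11, 13 of 22 and 4 of 9 members called lower, against 8.17%, 14% and 17.8% of all loci. Lower members were thus found in all 3 ranges in HT-29, and higher members in NCM460 only below 50%.

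**Figure D3:**
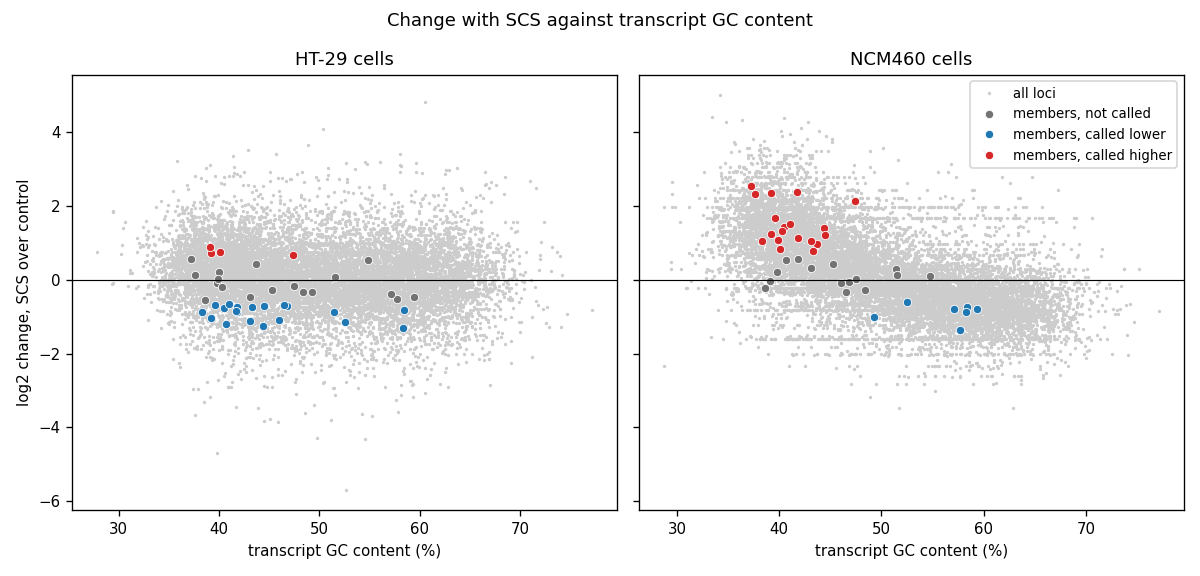
Log2 change with SCS against the GC content of the transcript in percent, in HT-29 (left) and NCM460 (right), with all tested loci in grey and members coloured by call (NUP35 is left out in NCM460). The cloud of all loci slopes downwards in NCM460 (rho -0.63) and little in HT-29 (rho -0.13), and the 19 members called higher in NCM460 lie below 50% GC.

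Set side by side, 10 of the 42 members (23.8%) were called lower in HT-29 and higher in NCM460, against 213 of the 10849 loci tested in both lines (1.96%). They were NUP107, NUP160, NUP43 and SEH1L of the Y complex, NUP205, NUP153, IPO5, IPO8, XPO1 and CSE1L. After GC subtraction, NUP205, IPO8 and CSE1L had both calls. Of all loci, 16% were then called lower in HT-29 and 5.65% higher in NCM460, and the share with both calls is not given here. NUP188, NUP62 and NUP210 were lower in both lines (7.14% of members, against 3.36% of all loci). None of the 3 was called in NCM460 with total counts, where NUP188 stood at 0.08, or with the GC trend subtracted. NUP88, RANBP2 and TPR were higher in both (7.14%, against 4.22% of all loci). RANBP2 and TPR were called in neither line after GC subtraction, and NUP88 went the other way in FPKM. No member was higher in HT-29 and lower in NCM460, a state found in only 1.87% of all loci. Of all members, 24 (57.1%) had their lowest level of the 4 libraries in the NCM460 control, against 38.1% of all loci, and 19 (45.2%) had their highest level in the HT-29 control, against 20.3%. The NCM460 control was also the library with the fewest nuclear fragments and the highest mitochondrial share (62.3%), and the part of either in the member values was not tested.

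**Figure D4:**
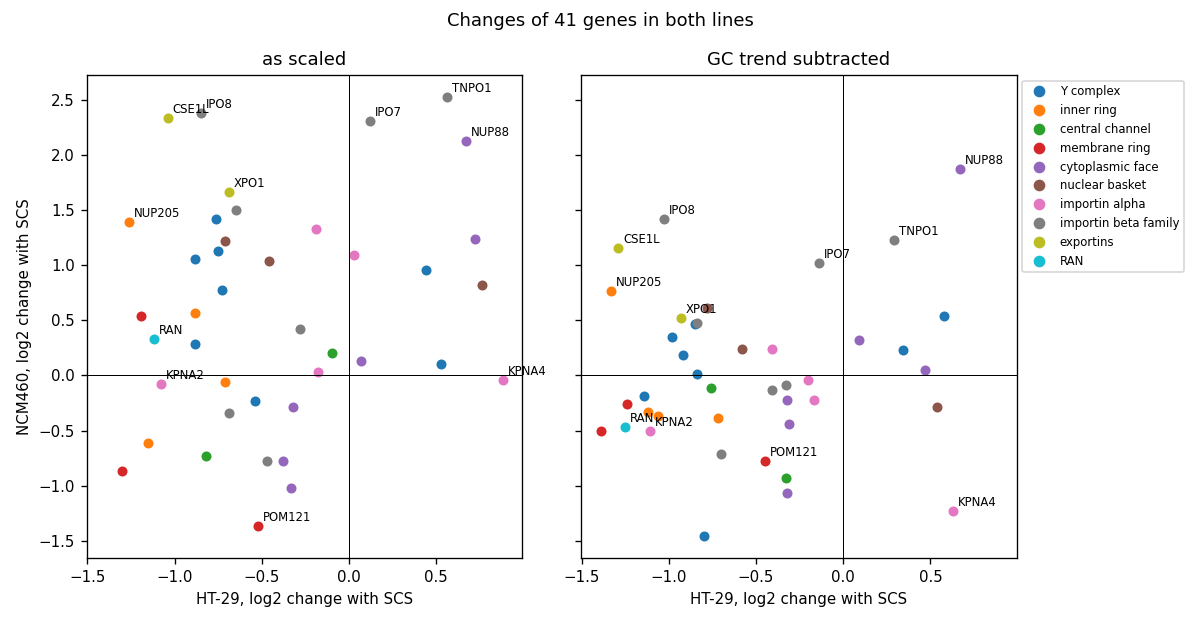
Log2 change with SCS in HT-29 (horizontal) against NCM460 (vertical) for 41 members, coloured by group, as scaled (left) and after subtraction of the GC trend (right); NUP35 is left out. The upper left area, lower in HT-29 and higher in NCM460, includes the 10 members called in opposite directions, and the median in NCM460 moves from 0.54 on the left to -0.09 on the right, where CSE1L, IPO8 and NUP205 are the ones still called in both lines.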

How the data were processed

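Total RNA was extracted with TRIzol and sequenced as paired ends on an Illumina instrument. The submitters' processing notes name bcl2fastq 2.17.1.14, cutadapt 1.9.1, Bowtie2 and HTSeq 0.6.1, and the authors used Cuffdiff. The notes name hg19, while the coordinates of the table are those of GRCh38 (93.6% of loci with an identifier had the start and end of GENCODE release 29). The deposited count columns hold a signal, that is, fragment counts that the authors divided by a size factor. The authors also deposited FPKM, fragments scaled by transcript length and library size, which was used for levels between genes and as an alternative. The design had assumed whole counts.

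Dividing each column by what a single fragment was worth left whole fragments (within 0.05 of a fragment) for 99.8% to 99.9% of values. Rows with no gene name, 26 in number, held 0.0403% to 0.0942% of the counts and were left out. Adjacent rows with identical values were merged into 18650 loci, 1812 of them with several genes. Counts were scaled by TMM (edgeR 4.0.16; factors 1.24, 1.5, 0.578 and 0.935 for HT-29 control, HT-29 with SCS, NCM460 control and NCM460 with SCS), and log2 changes were computed after 2 prior counts were added. The comparison took loci that averaged 1 CPM or more in a line. Intervals are exact Clopper-Pearson intervals at 95% of the share of fragments in the SCS library and cover counting error only. The GC trend was a lowess fit with a span of 0.3. Count tests of edgeR and DESeq2 were not fitted within a line, with 1 library per condition, and they give no number of called genes here. A model of a change shared by both lines was not fitted.

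The members and gene lists were chosen with earlier results of these data known. All 42 members were accounted for. Values were given for members called in a line, for the highest and lowest change of each group, and for RAN, XPO1 and KPNB1, and from the 28 further pathway genes for the 3 largest changes of each line among genes averaging 10 CPM or more. The alternatives were DESeq2 1.42.0 size factors, total counts, nuclear totals, a prior of 0.5, other filters, trends with GC, length and expression, thinning to 507692 nuclear fragments, FPKM with a pseudocount of 1 and, chosen after seeing the data, the authors' size factors and members with a locus of their own.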

Additional observations from a re-analysis of the deposited data

Results flagged for a closer look

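The 10 members given here were called in opposite directions in the 2 cell lines, lower with SCS in HT-29 and higher in NCM460. With 1 library per condition the difference between the lines was not tested. In the Y complex, the log2 changes in HT-29 and NCM460 were -0.76 and 1.42 for NUP107, -0.73 and 0.78 for NUP160, -0.75 and 1.13 for NUP43 and -0.88 and 1.06 for SEH1L. NUP205 of the inner ring had -1.26 and 1.39, and NUP153 of the basket had -0.71 and 1.22. Among the receptors, the changes were -0.65 and 1.5 for IPO5, -0.85 and 2.38 for IPO8, -0.69 and 1.67 for XPO1 and -1.04 and 2.34 for CSE1L. After subtraction of the GC trend, both calls were left for NUP205, IPO8 and CSE1L, and the share of all loci with both calls is not given for that setting. With total counts, NUP107, NUP160, NUP43, NUP153, IPO5 and XPO1 were no longer called lower in HT-29, and with nuclear counts thinned to equal depth NUP107, NUP160, NUP43 and NUP153 were not. In NCM460, NUP107, NUP160 and NUP43 were no longer called higher with the length trend subtracted. NUP160 and NUP43 also lost that call with DESeq2 size factors and with the authors' size factors, and NUP43 with the expression trend subtracted.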

How the results depend on the processing

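In HT-29 the count of lower members, 20, was 10 with total counts, and the median of -0.53 was then -0.28. The count of higher members, 4, was 7 with total counts, 2 with nuclear totals and 2 with the GC trend subtracted. In NCM460 the median of 0.56 was 1.2 with total counts and turned to -0.07 with the GC trend subtracted. The 19 higher members became 6 with the GC trend and 11 with the length trend subtracted. The 7 lower members became 1 with total counts, 4 with nuclear totals and 2 with the expression trend subtracted. Over members with a locus of their own 4 were lower, because NUP188, NUP62 and IPO4 share a locus and were left out. No value or call changed in that setting. By gene, the change turned to 0.08 for NUP188 in NCM460 with total counts. It turned to -0.29 for TPR, -0.19 for SEH1L and -0.04 for KPNA1 in NCM460 with the GC trend subtracted. In FPKM it turned to -0.26 for NUP88 and -0.03 for RANBP2 in HT-29, and to -1.34 for TPR and -0.22 for NUP88 in NCM460. The cause of these shifts was not tested. Total counts moved the median of all loci by 0.24 in HT-29 and 0.62 in NCM460, and nuclear totals by -0.13 and 0.20. No paired analysis within a line was possible because each condition had 1 library, which leaves no replicates to pair. A fit over both lines, with the line as a block, was left out here, and no library was left out, since each is the sole one of its condition. Depth limits NUP35, NUP88 and IPO8 most, with 0, 4 and 6 fragments in the NCM460 control.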
